A study of Mus musculus with 18 samples.

Results

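The cells described here were keratinocytes of mouse skin that carried RNA of Krt79, the keratin of the upper hair follicle. They were 739 of 47251 cells that passed quality limits, and they came from 10 droplet libraries of skin with or without a tissue expander. A cell belonged to the population when it held at least 2 unique molecular identifiers (UMIs, each counting 1 captured RNA molecule) of Krt79 and at least 5 of Krt79, Cst6, Defb6 and Krt17 together. Cells with any UMI of the leukocyte gene Ptprc, with 20 or more of the sebocyte gene Scd1, with collagen genes at 0.5% of UMIs or more, or with 3 or more UMIs of the cycle genes Mki67, Top2a, Cdk1 and Birc5 were left out. The members were thus chosen by the measured UMIs of these 12 genes, so their levels are given as a description, with no test.

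All mice had surgery with an incision near the tail and a path opened under the skin towards the neck. Expanded mice then received a hydrogel expander under the skin, which swells and stretches it, and control mice received none. Skin was collected on day 1, 2 or 4, and live cells were sorted as DAPI negative. A library pooled the mice of 1 arm, day and sequencing round, and each arm had 5 libraries: day 1 in rounds 1 and 2, day 2 in rounds 1 and 2, and day 4 in round 1. Values per library are listed in that order throughout. Strain, sex, age and any genotype of the mice were not given in the sources used here. The libraries are the replicates, so a p-value measures the spread between pools of mice.

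The upper follicle, made up of the infundibulum and the isthmus, is the passage through which the hair shaft and sebum reach the skin surface. Its keratinocytes descend from stem cells above the bulge that carry Lrig1 and Plet1, they line the canal and the sebaceous duct, and they cornify without the full programme of the epidermis between follicles. This compartment is known for antimicrobial peptides and for contact with commensal microbes, and after wounding its cells can move into the epidermis.

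Within the members, Krt79 had a median of 18 UMIs per cell with a 10th to 90th percentile range of 3 to 140.4. Krt17, a keratin of follicle epithelium, had a median of 21 UMIs and was found in 88.8% of the cells. Defb6, a beta-defensin, had a median of 15 UMIs and was found in 81.1%. Cst6, a cystatin that inhibits cathepsins in cornifying epithelium, was the most uneven of the 4 marker genes, with a median of 2 UMIs, a 90th percentile of 226.6 and a UMI in 63.6% of the cells. At the edge of the rule, 69 members held exactly 2 Krt79 UMIs and 35 held a marker sum of 5 to 7. The 87 members just inside had a pooled Krt79 level of 205 CPM, and 224 cells just outside had 98.2 CPM. CPM here is a gene's UMIs, summed over a set of cells, scaled to a common total.

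On the GRCm38 assembly with GENCODE M21 models, Krt79 lies at chr15:101929332-101940324 on the minus strand and Krt17 at chr11:100256217-100261029 on the minus strand. Cst6 lies at chr19:5344705-5349574 on the minus strand, and Defb6 at chr8:19225478-19228209 on the plus strand. The 250 bases before the start of Krt79 (chr15:101940325-101940574, minus strand) and of Defb6 (chr8:19225228-19225477, plus strand) are shown, from RefSeq on GRCm38.p6, because these 2 genes mark the population and were detected together with Gata6, a GATA-family factor. Both strands were searched for the AP-1 motif TGANTCA, for AGATAA as the motif of the GATA family, for the TATA box as TATAAA and for the CCAAT box. Capitals mark the only match to these exact letters, AGATAA in the Defb6 window, 115 bases before the start. Other forms of these motifs, which either window may hold, were not searched. The Krt79 window had no match to the letters searched, which does not exclude other forms of the motifs.
Krt79: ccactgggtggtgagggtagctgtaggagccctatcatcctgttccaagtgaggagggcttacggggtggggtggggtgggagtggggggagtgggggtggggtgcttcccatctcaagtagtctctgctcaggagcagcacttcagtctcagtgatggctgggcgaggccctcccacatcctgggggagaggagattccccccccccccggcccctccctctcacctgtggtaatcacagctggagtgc
Defb6: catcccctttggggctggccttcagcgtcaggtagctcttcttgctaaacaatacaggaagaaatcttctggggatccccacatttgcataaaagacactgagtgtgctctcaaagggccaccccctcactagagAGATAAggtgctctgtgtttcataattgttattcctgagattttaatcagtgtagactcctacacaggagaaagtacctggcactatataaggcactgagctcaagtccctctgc
Of 32851 RefSeq promoter windows of the same length, 9.99% held the GATA-family motif on either strand, 6.75% the AP-1 motif, 12.4% the TATA box and 33.8% the CCAAT box. A match describes letters in this window and is no binding site.

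The label was checked against genes outside the rule. Basal keratinocytes were used for comparison (2646 cells with Krt5 plus Krt14 at 0.5% of UMIs or more and at most 1 Krt79 UMI). They held bulge cells too, with a Cd34 UMI in 43.7% and an Lgr5 UMI in 44.1%. Leukocytes (14577 cells with Ptprc) were used for comparison as well. A gene's share in leukocytes can hold RNA of their own and RNA from other cells, and these parts were not tested. Median depth was 13011 UMIs in members, 10708 in basal cells and 7251 in leukocytes, so shares were also taken after thinning each cell to 2000 UMIs, which left 718, 2583 and 13774 cells.

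Of the 8 upper follicle genes outside the rule, Plet1, Lrig1, Gata6, Klk7 and Klk10 were found in a larger share of members than of basal cells after thinning, and Lgr6, Sox9 and Aqp3 in a smaller share. Plet1, a surface glycoprotein of the isthmus, was found in 83.5% of members (56.7% thinned), 48.9% of basal cells (23.2% thinned) and 8.18% of leukocytes. Lrig1, which restrains EGF receptor signalling in the stem cells of the junctional zone, was found in 56.0% of members (21% thinned), 31.0% of basal cells (7.78% thinned) and 5.01% of leukocytes. Gata6, a transcription factor of the sebaceous duct and infundibulum, was found in 46.7% of members (15.2% thinned), 9.37% of basal cells (2.71% thinned) and 0.247% of leukocytes. The mean Gata6 level over the 10 libraries was 78.4 CPM in members, with a range of 40.8 to 133 CPM, and 19.9 CPM in basal cells. Klk7, a kallikrein protease that cuts the junctions of cornified cells, was found in 38.4% of members (25.5% thinned), 2.91% of basal cells (1.28% thinned) and 0.418% of leukocytes. Lgr6, a Wnt-pathway receptor that marks isthmus stem cells, was found in 13.8% of members (3.76% thinned) and 26.6% of basal cells (8.09% thinned). Sox9, a follicle transcription factor, was found in 90.9% of members (57.1% thinned) and 85.2% of basal cells (61.0% thinned). Aqp3, a water and glycerol channel, was found in 57.4% of members and 61.2% of basal cells after thinning, and Klk10, a kallikrein, in 4.04% and 1.08%.

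Members also carried keratins of the basal layer, with Krt14 in 95.7% and Krt15 in 83.9%. Of the bulge genes, Cd34 and Lgr5 were found in 4.06% and 4.6% of members, and Fgf18 and Tcf7l1 in 1.62% and 7.04%. Lhx2 was found in 15.3%, Postn in 19.5% and Ctnnal1 in 22.3%, each a smaller share than in basal cells. Nfatc1, also of that list, was found in 51.7% of members and 49.6% of basal cells (13.9% and 16.5% thinned). Genes of the suprabasal layers were found in part of the population: Krtdap, a secreted differentiation protein, in 55.9%, Calm4, a calmodulin-like protein of differentiating keratinocytes, in 39.8%, and Krt10, the spinous keratin, in 37.5%. The late cornified genes Lor and Flg, which encode loricrin and filaggrin, were found in 4.06% and 1.49%. Other cornified envelope genes were found more often: Sprr1a in 46.3% of members and 10.8% of basal cells, and Klk5 in 18.8% and 1.85%. Casp14 was found in 15.3% and 3.74%, and Ivl in 12.2% and 1.06%. Tgm3, Sprr2a3 and Lce3c were found in a smaller share of members than of basal cells, all under 2%. The mean Krt10 level was 385 CPM in members and 12586 CPM in the 159 spinous cells, the Krt10-rich keratinocytes outside the population. Sebaceous cells, which also carried Krt79 (mean 1158 CPM against 3902 CPM in members), had 2767 CPM of Scd1 against 65.3 CPM in members, a gene the rule used. Of the members, 30 held Krt1 plus Krt10 at 0.5% of UMIs or more, 9 met an endothelial rule on Pecam1 and Cdh5, and 6 were called doublets by Scrublet.

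**Figure D1:**
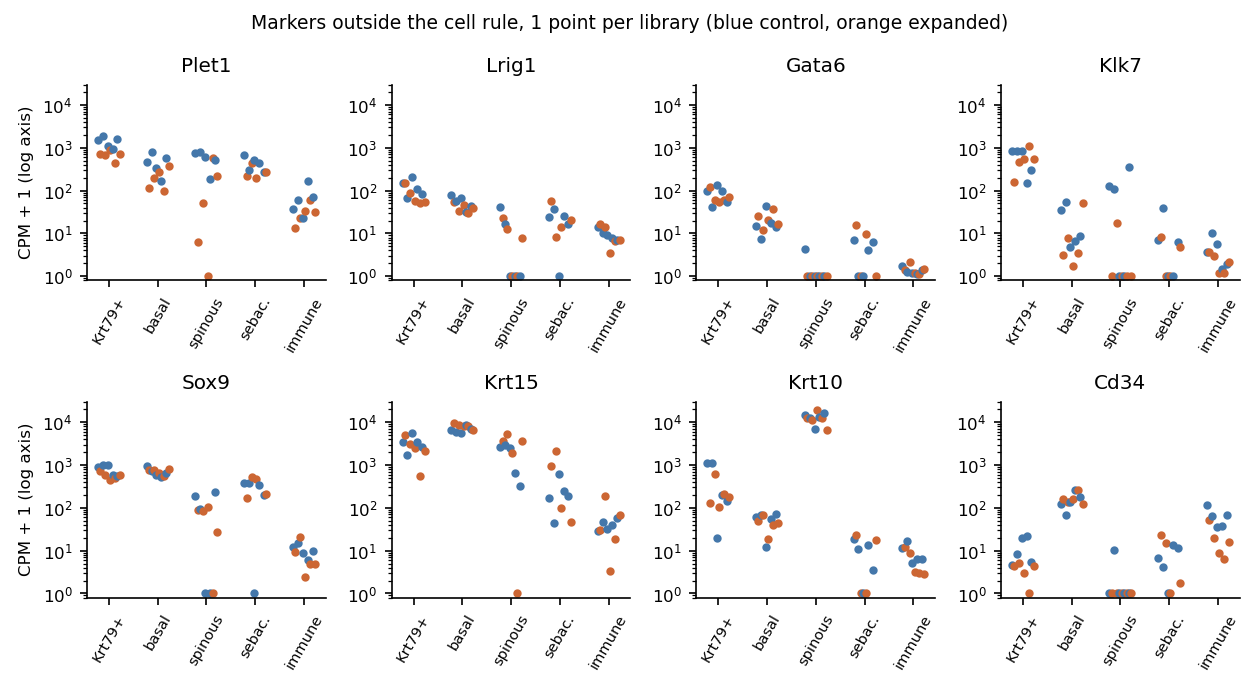
Level of 8 genes outside the cell rule in Krt79 positive cells, basal, spinous and sebaceous keratinocytes and leukocytes, as CPM plus 1 on a log axis, with 1 point per library (blue control, orange expanded). Gata6 and Klk7 had mean levels of 78.4 and 572 CPM in Krt79 positive cells against 19.9 and 17 CPM in basal cells, and Cd34 was lower in Krt79 positive than in basal cells.

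The members differed among themselves along Cst6. There were 269 cells with no Cst6 UMI, 214 with 1 to 9 and 256 with 10 or more, at median depths of 12556, 12104 and 14147 UMIs. These ranges were set on a rule gene and the values are a description. Pooled levels of Krt5, the basal keratin, were 2572, 2391 and 1431 CPM over the 3 ranges, and those of Itga6, the integrin that anchors basal cells to the basement membrane, were 309.9, 254 and 179.8 CPM. Sbsn (suprabasin), a secreted protein of differentiating keratinocytes, was at 326, 679.7 and 1918 CPM. Krtdap was at 284, 1219 and 2633 CPM. Sprr1a, a cornified envelope precursor, was at 153, 328 and 1502 CPM, and Klk7 at 84, 206 and 1050.3 CPM. Crabp2, which carries retinoic acid to its nuclear receptor, was at 15.7, 29.7 and 296 CPM. In single libraries with at least 10 cells of a range, Crabp2 ran from 5.88 to 39.3 CPM without Cst6 and from 109 to 691 CPM with 10 or more, so these ranges did not overlap.

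Lipid genes ran the other way. Plin2, a coat protein of lipid droplets, was at 585, 122 and 33.6 CPM over the 3 ranges, and Mgst1, a glutathione transferase abundant in sebocytes, was at 466, 212 and 154 CPM. Sox9 was at 744, 709 and 584 CPM, and Krt15 at 3393, 3278 and 2602 CPM. Plet1 had no such order, at 1127, 756 and 1040.5 CPM. Krt10 was at 40.02, 703 and 679 CPM, but its range over libraries was 22.9 to 88.1, 17.1 to 1942 and 149 to 2469 CPM, so cells with 1 to 9 Cst6 UMIs were as low as those without in some libraries.

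**Figure D2:**
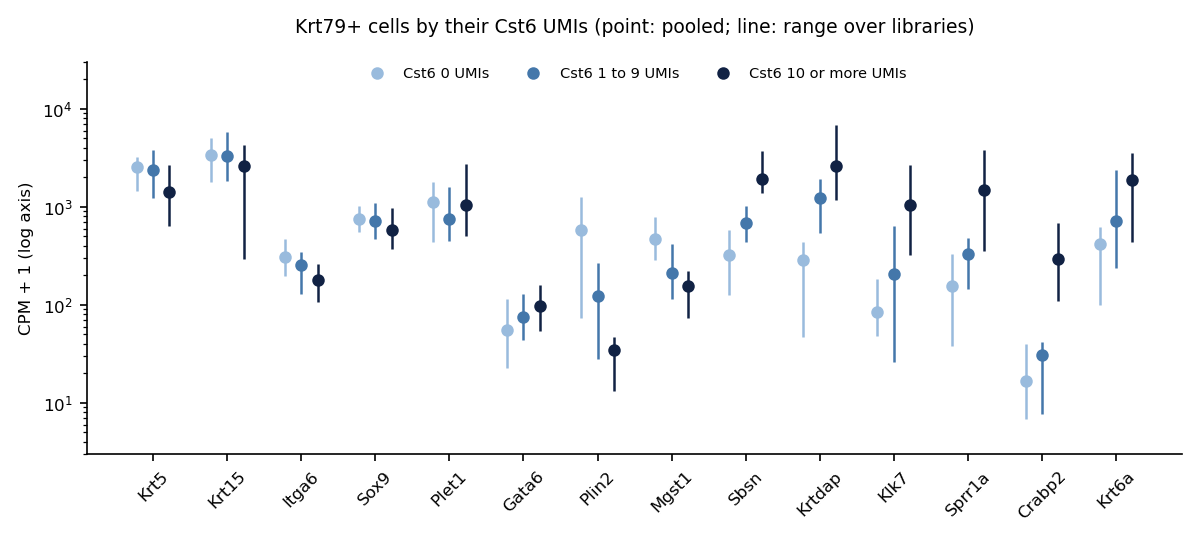
Pooled CPM plus 1 (log axis) of 14 genes in Krt79 positive cells with 0, 1 to 9 and 10 or more Cst6 UMIs, with lines for the range over libraries with at least 10 such cells. Krt5, Itga6, Plin2 and Mgst1 were lower and Sbsn, Krtdap, Klk7, Sprr1a and Crabp2 were higher in the cells with more Cst6.

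Clustering of the members alone gave 7 groups, which are described by their leading genes with no test. A group of 196 cells was led by the immediate early genes Nr4a1, Egr1 and Fos and by Id3, an inhibitor of helix-loop-helix factors, with 429.96 CPM of Nr4a1 against 120 in the other members. The second group, 151 cells, was led by Cst6, Crabp2, Krt6a and Klk7. The third, 115 cells, carried Krt10 at 2442 CPM against 122 in the other members, together with Krt77 and Calm4. The fourth, 87 cells, was led by Cd74, the invariant chain of class II antigen presentation, at 537 against 94.1 CPM, and by Plet1 at 2150.3 against 831 CPM. The fifth, 85 cells, was led by Plin2 at 1594 against 57.5 CPM and by Igfbp2, Thbs1 and Angptl4. The sixth, 72 cells, had a median of 8662.5 UMIs, the lowest of the 7, and was led by Bola1 and Mrpl12, genes of mitochondrial proteins. The seventh, 33 cells, was led by the gap junction gene Gja1 at 1221 against 83.3 CPM, by Pthlh and by the chemokine gene Cxcl14. In this order the groups held 88, 60, 56, 51, 54, 17 and 16 of the 342 control members. Of the 397 expanded members they held 108, 91, 59, 36, 31, 55 and 17. The largest single library gave 21.2% to 37.5% of a group, so these cell counts are no comparison of the arms. The expanded library of day 1, round 2 gave 41 of the 59 expanded cells of the third group and 27 of the 55 of the sixth.

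Library facts that touch the comparisons were these. Total UMIs per library ran from 17726739 to 75470722, kept cells from 1927 to 8312, and members from 7 to 181. The control library of day 2, round 1 had 7 members and the expanded library of day 2, round 2 had 17, so both fell under the minimum of 20 cells for gene tests. The median UMI count per member was higher in the expanded library of every pair, at 16849.5 ± 2637 (SD, n = 5) against 10591.3 ± 2152 (n = 5, exact two-sided permutation p = 0.00794, the smallest the design allows). Depth was higher in basal cells too, at 13297.5 against 8558.4 UMIs. Neutrophil-rule cells were 0.302% of control and 5.62% of expanded cells, and fibroblast-rule cells 30.05% and 5.28%. Of 46988 distinct barcodes, 263 occurred in 2 libraries or more, 11 of members among them.

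Krt79 positive cells made up 1.32%, 1.28%, 0.320%, 1.40% and 0.932% of the control libraries and 2.91%, 3.08%, 0.855%, 0.882% and 2.45% of the expanded ones. The expanded library was higher in 4 of 5 pairs and lower in day 2, round 2, and the arms overlapped. The mean was 2.04% ± 1.09 (SD, n = 5) against 1.05% ± 0.446 (n = 5), a difference of 0.986 percentage points. An exact two-sided permutation test gave p = 0.119, and 0.238 after Benjamini-Hochberg adjustment over the 4 keratinocyte populations compared. As a share of the 4 keratinocyte populations instead, members were 24.0% ± 5.01 in control and 19.7% ± 5.16 in expanded libraries (exact permutation p = 0.222), lower in 4 of 5 pairs. Basal cells were 2.75% ± 1.03 of control and 8.94% ± 6.68 of expanded libraries (adjusted exact permutation p = 0.222) and were higher in 5 of 5 pairs. The direction for Krt79 positive cells thus depended on what they were counted against. Hashtag antibodies, which mark the mouse of origin, gave 467 of 576 members of the 8 hashed libraries to 1 of 28 mice, with 0 to 119 members and a median of 13 per mouse. In the expanded library of day 1, round 2, 1 of 3 mice gave 119 of 142 assigned members (83.8%) and 84.0% of all assigned cells.

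**Figure D3:**
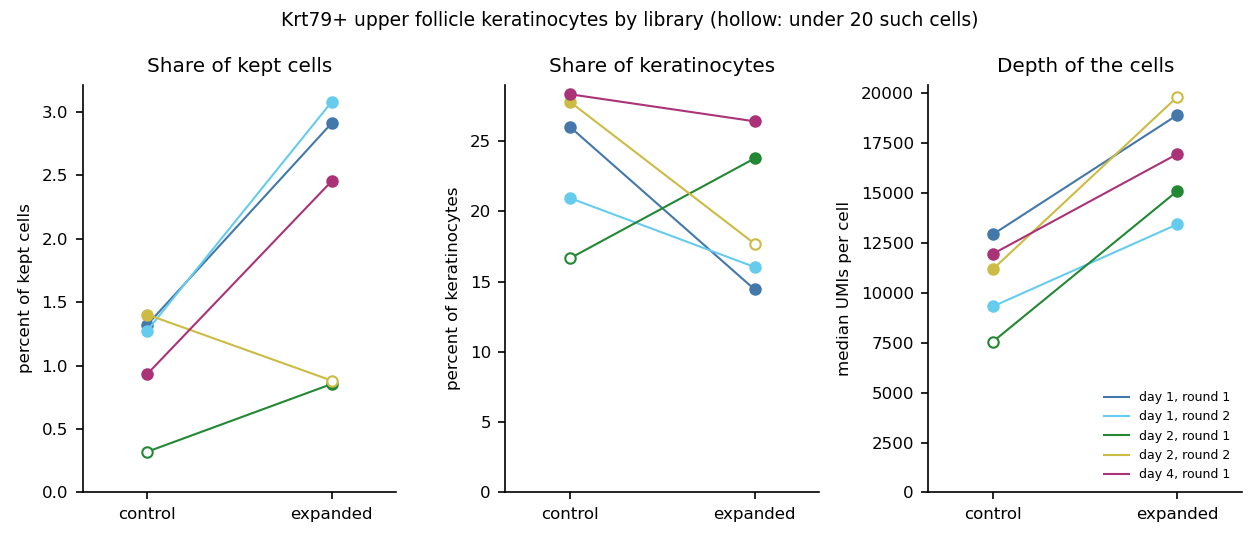
Krt79 positive cells per library as percent of kept cells (left) and of keratinocytes (middle), and their median UMIs (right), with a line joining the control and expanded library of a day and round, hollow where under 20 such cells. The share of kept cells was higher in 4 of 5 expanded libraries, the share of keratinocytes in 1 of 5, and the depth in 5 of 5.

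Gene levels of the members were compared between arms on UMIs summed per library, in the 8 libraries with at least 20 members and with day in the model. With edgeR's quasi-likelihood test and Benjamini-Hochberg adjustment, 0% of 8521 genes passed an adjusted p of 0.05, and the smallest adjusted p was 0.0502. At an unadjusted p under 0.05, 7.85% were higher (669 genes) and 8.13% lower (693 genes). DESeq2 called 71 genes, and edgeR with the day and round pairs as a replicate block called 6. In the 8 libraries that block rests on the pairs of day 1 and day 4, since each day 2 pair had lost 1 library. On all 10 libraries, a fit added with the data in view, edgeR called 42 (0.485%), of which 16 were higher and 26 lower. Fold changes are given from the 8 libraries, with the adjusted p of the fit on 10 beside them where that passed. Without the expanded library of day 1, round 1, 46 genes passed, and without any other single library between 0 and 6.

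Rbm3 and Cirbp, RNA-binding proteins known to be induced by mild cold, had the 2 smallest p-values among the higher genes. Rbm3 (chrX:8138975-8145880) was at 551, 536, 513, 589 and 517 CPM in control and 1106, 1488, 1074, 1217 and 1441 CPM in expanded libraries. Every expanded library lay above every control library, as did 5.06% of the 8521 genes over the 8 libraries. The log2 fold change was 1.18 ± 0.15 (SE, adjusted p = 0.0502 by edgeR, 0.00449 with 10 libraries). Cirbp was at 58, 47.3, 38, 45 and 39.4 CPM in control and 167, 139, 84.2, 86.3 and 99 CPM in expanded libraries, again without overlap. Its log2 fold change was 1.30 ± 0.17 (SE, adjusted p = 0.0502 by edgeR, 0.00515 with 10 libraries). Both genes were also higher in the expanded library of 5 of 5 pairs in basal cells, leukocytes, fibroblasts and endothelial cells.

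Among genes picked after their values were seen, 4 act in lipid transport or sterol synthesis. Apoe, the carrier of cholesterol-rich lipoproteins, was at 16813, 16769.5, 17794, 14212 and 20125 CPM in control and 10964, 9594, 8565, 6060.3 and 16318 CPM in expanded libraries. It was lower in each of the 5 pairs, although the arms overlapped, with a log2 fold change of -0.65 ± 0.10 (SE, adjusted p = 0.0668 by edgeR, 0.0464 with 10 libraries). Apoe was lower in 5 of 5 pairs of basal cells and of leukocytes as well. Idi1 and Fdps, enzymes of the mevalonate pathway, had log2 fold changes of 1.25 ± 0.30 and 1.22 ± 0.31 (SE, adjusted p = 0.128 and 0.137 by edgeR, 0.0578 and 0.0501 with 10 libraries). Idi1 was at 39.9, 60.3, 0, 88 and 50.4 CPM in control and 61.7, 145, 177, 348 and 210.0 CPM in expanded libraries, and all 5 pairs were higher. Both mevalonate pathway genes were also higher in 5 of 5 pairs of basal cells, leukocytes and fibroblasts, and in 4 of 5 of endothelial cells. Acat2, which makes the acetoacetyl-CoA of that pathway, was at 8.16 to 38 CPM in control and 20.9 to 83.6 CPM in expanded libraries (log2 fold change 1.52 ± 0.27, adjusted p = 0.0807 by edgeR, 0.0253 with 10 libraries). Plin2 was at 19 to 709 CPM in control and 29.7 to 319 CPM in expanded libraries (log2 fold change -1.99 ± 0.47, adjusted p = 0.128 by edgeR). The share of cells with a Plin2 UMI was 38.6% in control and 39.0% in expanded members at their own depths. After thinning it was 21.8% of 335 and 9.14% of 383 pooled cells. By library the thinned shares were 18.2%, 28.6%, 0%, 14.1% and 26.1% in control and 14.3%, 5%, 7.69%, 0% and 15.4% in expanded members, so the arms overlapped. The Plin2-led group held 54 of 342 control and 31 of 397 expanded members. By library these were 8, 25, 0, 5 and 16 control and 9, 5, 1, 0 and 16 expanded cells. Of 9 sebocyte-list genes tested, 1 was higher and 3 lower at an unadjusted p under 0.05, with a list median of -0.71 beside 0.00 over all genes.

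Among the upper follicle genes outside the rule, 2 of 8 were higher and 2 lower at an unadjusted p under 0.05, with a list median of -0.10. Plet1 was at 1532, 1862, 1103, 928 and 1594 CPM in control and 698, 679, 875, 443 and 716 CPM in expanded libraries. Every expanded library lay below every control library, as did 2.3% of the 8521 genes over the 8 libraries. The Plet1 log2 fold change was -1.01 ± 0.21 (SE, adjusted p = 0.0949 by edgeR, 0.0157 with the replicate block, 0.0536 with 10 libraries). The replicate block value rests on the pairs of day 1 and day 4. Sox9 had a log2 fold change of -0.37 (adjusted p = 0.251), Aqp3 of 0.36 (adjusted p = 0.265), and Klk10 of 0.82 (adjusted p = 0.275), by edgeR. The rule genes themselves, which carry no test, had means of 2986 ± 639 CPM in control and 4818 ± 2303 in expanded libraries for Krt79. They were 4028 ± 2355 and 11453 ± 8317 CPM for Cst6, 2037 ± 876 and 5686 ± 3329.5 CPM for Defb6, and 3691 ± 727 and 6179 ± 2850.4 CPM for Krt17 (SD, n = 5 each). Cells with 10 or more Cst6 UMIs were 44.2%, 25.5%, 14.3%, 31.7% and 22.9% of control and 31.4%, 30.4%, 55.2%, 70.6% and 50% of expanded members. That limit is on raw UMIs, and depth was higher in the expanded library of every pair. After thinning, cells with 2 or more Cst6 UMIs were 42.9%, 28.6%, 50%, 33.3% and 26.1% of control and 26.2%, 32.8%, 42.3%, 80% and 50% of expanded members, so the arms overlapped.

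Krt6a, Crabp2, Fabp5 and Krtdap had higher fitted levels with expansion and Krt10 a lower one, without passing the adjusted threshold. Differentiation genes had no common direction. Of 8 cornified envelope genes tested, 0 were higher and 1 lower at an unadjusted p under 0.05, with a list median of -0.01. Krt6a, a keratin of activated and follicular keratinocytes, was at 679, 448, 285, 558 and 731 CPM in control and 705, 1244, 1160.3, 3052 and 1931 CPM in expanded libraries. It was higher in 5 of 5 pairs, with a log2 fold change of 0.97 ± 0.22 (SE, adjusted p = 0.120 by edgeR). Crabp2 was at 59.8, 35.2, 38, 77.3 and 102 CPM in control and 70.2, 107, 265, 596 and 221 CPM in expanded libraries (log2 fold change 1.14 ± 0.24, adjusted p = 0.110). In the list of retinoid genes, 2 of 6 tested were higher and 0 lower at an unadjusted p under 0.05. Fabp5, a carrier of fatty acids and retinoic acid, was at 362 CPM in the expanded library of day 1, round 1 and at 622 to 2806 CPM in the other 4, against 152 to 517 CPM in control libraries (1.40 ± 0.43, adjusted p = 0.176). Of 8 spinous-list genes, 1 was higher (Krtdap, 1.06 ± 0.31) and 1 lower (Krt10, -1.04 ± 0.45, adjusted p = 0.299) at that threshold. Krt10 was at 1133, 1122, 19, 195 and 147 CPM in control and 130.2, 621, 105, 208 and 173 CPM in expanded libraries, so it was higher in 3 of 5 pairs although the fitted value was negative. In the glycolysis list 4 of 9 genes were higher and 0 lower, among them Pgam1 at 0.56 and Gapdh at 0.43 (adjusted p = 0.198 and 0.251).

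**Figure D4:**
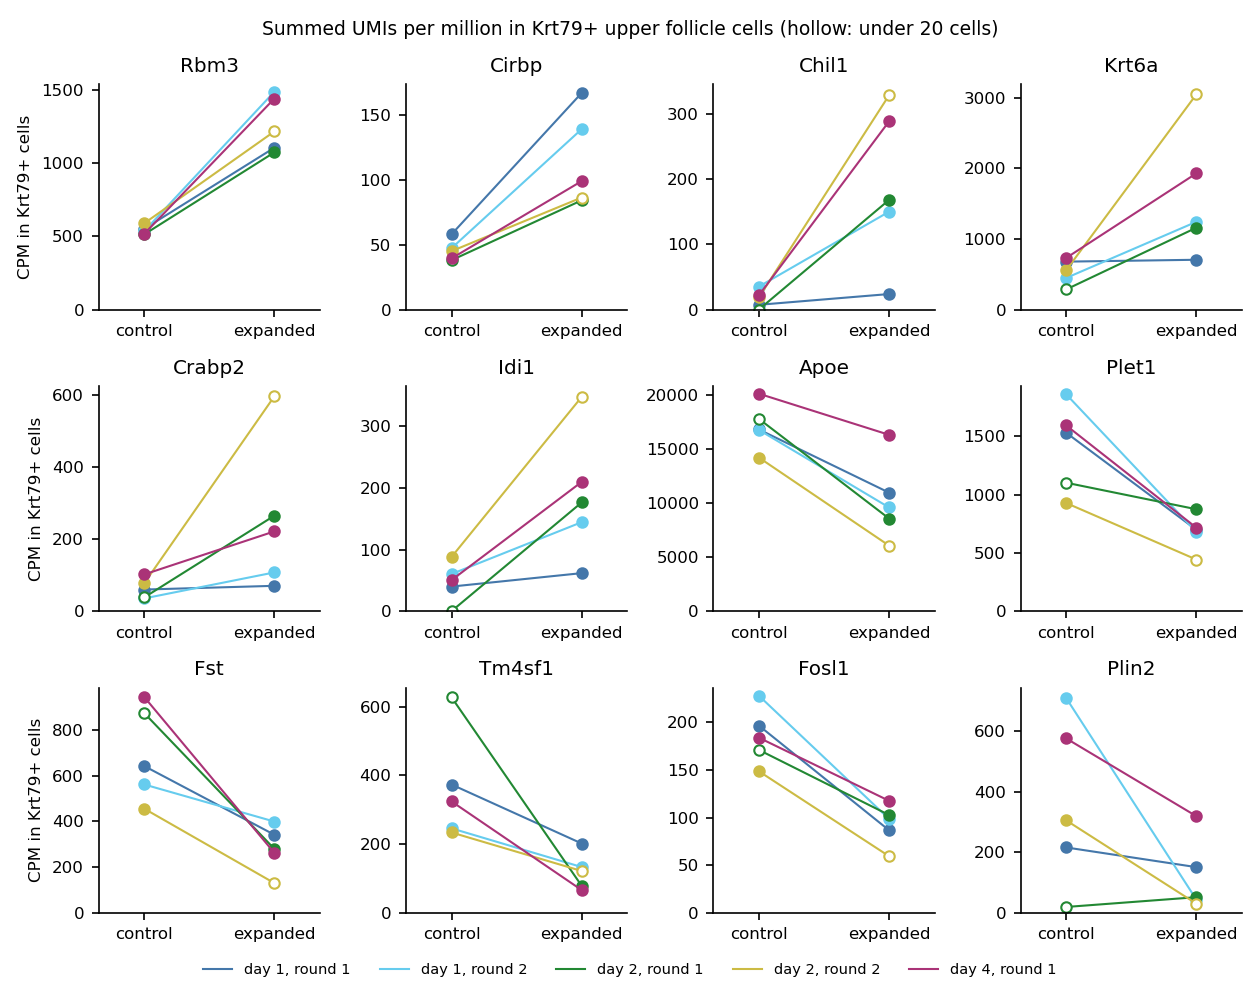
CPM of 12 genes in Krt79 positive cells, control and expanded, with a line for each day and round, hollow where under 20 cells. Rbm3 and Cirbp were higher and Plet1, Fst, Tm4sf1 and Fosl1 lower in all 5 pairs without overlap between arms, while Plin2 was higher in 1 pair.

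Antimicrobial and secreted defence genes were higher in some expanded libraries. Chil1, a chitinase-like secreted protein, was at 7.25, 35.2, 0, 18.6 and 21.9 CPM in control and 23.8, 150.3, 168, 329 and 289 CPM in expanded libraries. It was higher in 5 of 5 pairs, with a log2 fold change of 2.72 ± 0.60 (SE, adjusted p = 0.118 by edgeR, 0.0272 with 10 libraries). Chil1 had a UMI in 11.4% of control and 31.0% of expanded members, and in 3.58% and 13.3% after thinning. It was also higher in 5 of 5 pairs of leukocytes, 4 of 5 of basal cells, 4 of 5 of endothelial cells and 3 of 5 of fibroblasts. Lcn2, which binds bacterial siderophores, was at 49.8, 124, 0, 45 and 321 CPM in control and 122, 128, 170.4, 318 and 800.1 CPM in expanded libraries (1.01 ± 0.30, adjusted p = 0.160). S100a9, a subunit of calprotectin, was at 0 to 8.16 CPM in control libraries and at 3.96, 22.4, 10.3, 693 and 299.7 CPM in expanded ones (3.10 ± 1.04, adjusted p = 0.200). Its UMIs came from 61 of 397 expanded members, and 1 cell held 31.6% of them. S100a8 and S100a9 are abundant in neutrophils, whose share of kept cells was 5.62% in expanded libraries. The other neutrophil markers summed to 0 to 14.5 CPM in control and 0 to 49.2 CPM in expanded members, with Mmp8 at 0, and the part of neutrophil RNA in these values was not tested. Of 6 antimicrobial genes tested, 3 were higher and 0 lower at an unadjusted p under 0.05.

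Of the genes with lower levels, none passed in the 8 libraries, and Fst, Tm4sf1 and Rcan1 were picked after their values were seen. Fst (follistatin), which binds activins, was at 643, 562, 874, 456 and 945 CPM in control and 341, 399, 279, 129.5 and 262 CPM in expanded libraries, with no overlap (log2 fold change -1.03 ± 0.20, adjusted p = 0.0864 by edgeR; -1.23 and 0.0280 with 10 libraries). Tm4sf1, a tetraspanin-like membrane protein, was at 234 to 627 CPM in control and 65.8 to 202 CPM in expanded libraries (-1.43 ± 0.26, adjusted p = 0.0807, 0.0267 with 10 libraries). Of 5 pairs each, Tm4sf1 was higher with expansion in 0 of basal cells, 1 of leukocytes, 1 of endothelial cells and 4 of fibroblasts. In the same order Fst was higher in 3, 4, 2 and 5 pairs, and Rcan1 in 2, 0, 0 and 2. Fosl1, an AP-1 subunit, was at 149 to 228 CPM in control and 59.4 to 118 CPM in expanded libraries (-0.95 ± 0.18, adjusted p = 0.0807, 0.0331 with 10 libraries). It was the only 1 of 8 AP-1 genes tested with an unadjusted p under 0.05. Rcan1, an inhibitor of calcineurin, was at 126, 112, 19, 60.6 and 166 CPM in control and 34.5, 47.1, 34.9, 43.2 and 69.1 CPM in expanded libraries, higher in the pair whose control library had 7 members (-1.38 ± 0.19, adjusted p = 0.0502, 0.0348 with 10 libraries). In the YAP and TAZ target list 0 of 7 genes were higher and 2 lower at an unadjusted p under 0.05. Ccn1, a matrix-associated target, was at 171 to 391 CPM in control and 5.40 to 203 CPM in expanded libraries (-1.22 ± 0.32), and Tead1, the DNA-binding partner, had -0.95 (adjusted p = 0.138 and 0.128). Of 10 integrin, laminin and protease genes tested, 0 were higher and 4 lower at that threshold, among them Plaur, the urokinase receptor (-2.09 ± 0.52), Fn1, fibronectin (-2.18), and Itgb1, an integrin subunit (-0.72). Thbs1, a matrix glycoprotein, was at 228 to 1499 CPM in control and 5.40 to 542 CPM in expanded libraries (-1.41 ± 0.32, adjusted p = 0.120).

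The remaining lists had few members past an unadjusted p of 0.05, and none passed after adjustment in the 8 libraries. Of 8 basal-layer genes tested, 1 was higher (Krt14, log2 fold change 0.36) and 2 lower (Itga6, -0.57, and Dst, -0.75, both of the hemidesmosome). Bulge genes had 0 of 5 past that threshold in either direction, and cornified envelope genes 0 higher and 1 lower of 8 (Ivl, involucrin, -0.92). Among 11 chemokine and IL-1 family genes, Ccl20, which attracts CCR6-bearing lymphocytes, was higher (1.80 ± 0.50, adjusted p = 0.143 by edgeR), and Ccl7 (-1.34) and the alarmin Il33 (-1.25) were lower. Of 7 EGF receptor ligands 1 was lower (Epgn, epigen, -0.97), of 7 desmosome genes 1 was higher (Pkp1, plakophilin, 0.48), and of 7 Notch genes 1 was lower (Jag1, a ligand, -0.47). Protease inhibitors had 1 of 7 higher (Stfa3, 1.58) and 2 lower, among them Cst3, a cystatin (-0.45). In the list of the IL-4, IL-13 and TSLP axis 2 of 8 were lower (the receptors Osmr, -0.57, and Il6ra, -0.77), and of 4 interferon genes 1 was higher (Ifitm3, 0.72). The list shares stand beside 7.85% higher and 8.13% lower over all genes.

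Fibroblast RNA in the members had a lower mean in the expanded arm. The fibroblast marker list, with 8 of 8 genes detected, summed to 209 to 1021 CPM in control and 13.5 to 480 CPM in expanded members, overlapping ranges (exact two-sided permutation p = 0.127), and 3 of 5 of its genes tested were lower at an unadjusted p under 0.05. The 26 lower genes called with 10 libraries include Col1a1 and Col1a2, which the rule used and which carry no test here. Of the others, Ccl8, Zeb2, Igfbp6, Lyz2, Tgfbr2 and Zbtb20 had a mean level at least 10 times higher in fibroblasts or leukocytes than in members. Of the 16 higher genes, 0 did. The share of all 8664 genes tested with such a difference was not computed, so these counts are a description only. Fn1 is made by fibroblasts too. The part of RNA from other cells in the lower genes was not tested.

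The change with expansion was next compared between days. With edgeR, 0% of 7696 genes had an arm-by-day term with an adjusted p under 0.05, and 4.07% had an unadjusted p under 0.05. With 10 libraries the count was also 0 of 7511. Day 2 rested on an expanded library of round 1 and a control library of round 2, and day 4 on 1 library per arm. Spink5, a serine protease inhibitor of the upper epidermis, had a log2 fold change of -1.02 on day 1, 2.52 on day 2 and 0.97 on day 4 (adjusted p of the difference 0.955). It was at 129, 158, 190.1, 83.1 and 96.4 CPM in control and 57.2, 93.1, 466, 507 and 193 CPM in expanded libraries. Cxcl1, a neutrophil chemokine, had -1.68, 0.93 and 0.76, and Ly6a, a surface protein known as Sca-1, had 2.83, -0.09 and 0.30 (both adjusted p = 0.955 by edgeR). Timp3, an inhibitor of metalloproteinases, had -0.96, 1.73 and -1.51, Lgals1, galectin-1, had -0.38, -4.34 and 0.92, and BC004004 had 1.03, -0.08 and -1.28, at the same adjusted p. No gene's course over days was thus separated from the spread between libraries.

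Finally, the response was compared with that of basal keratinocytes of the same libraries by the population-by-arm term of an edgeR model. Basal cells themselves had 43 genes past an adjusted p of 0.05 in the 8 libraries (0.413% of 10413) and 433 in all 10 (4.16% of 10406). The difference in response passed for 4 of 9700 genes (0.0412%), with 7.28% at an unadjusted p under 0.05, and for 2 of 9134 (0.0219%) with 10 libraries. Mt1 and Mt2, neighbouring metallothionein genes that bind zinc and copper, were higher with expansion in basal cells and not in Krt79 positive cells. Mt1 was at 2599.9, 1368, 1796, 1764 and 2358 CPM in control and 4277, 2441, 3055, 4167 and 2749.7 CPM in expanded basal cells. In Krt79 positive cells Mt1 was at 3725, 2248, 342, 1424 and 2845 CPM in control and 3305, 1643, 1468, 623 and 2245 CPM in expanded libraries. The log2 fold changes were 0.56 in basal and -0.26 in Krt79 positive cells, a difference of -0.86 ± 0.10 (SE, adjusted p = 0.0117 by edgeR). For Mt2 they were 0.68 and -0.05, a difference of -0.76 ± 0.10 (adjusted p = 0.0193 by edgeR). With all 10 libraries the adjusted p was 0.620 for Mt1 and 0.132 for Mt2, so both calls rested on leaving out the 2 libraries with fewer than 20 members.

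Akr1c18, an aldo-keto reductase that inactivates progesterone, fell in basal cells and not in Krt79 positive cells. Basal cells held 9.32, 15.2, 0, 19.8 and 6.74 CPM in control and 1.04, 1.27, 0.766, 0 and 1.86 CPM in expanded libraries (log2 fold change -3.29 ± 0.39, adjusted p = 0.0154 by edgeR). Krt79 positive cells held 58.9, 143, 0, 55.7 and 94.2 CPM in control and 61.1, 43.3, 101, 18.9 and 114 CPM in expanded libraries, from 56 of 342 and 73 of 397 cells. The difference between the populations was 2.74 ± 0.38 (SE, adjusted p = 0.0342 by edgeR, 0.00926 with 10 libraries). After thinning this difference was 2.27 ± 0.74 and did not pass (adjusted p = 0.333 by edgeR). Leaving out 1 library gave 2.34 to 3.07, with adjusted p from 0.0434 to 0.177 by edgeR. It passed only without the expanded library of day 2, round 1 or the control library of day 2, round 2. Krt75, a keratin of the companion layer around the hair root, was at 15.4, 66.8, 0, 6.85 and 19.7 CPM in control and 2.83, 1.55, 0, 0 and 0.664 CPM in expanded Krt79 positive cells. Its difference was -4.19 ± 0.48 (SE, adjusted p = 0.0117 by edgeR, 0.00135 with 10 libraries), against a basal log2 fold change of -0.39. These UMIs came from 11 of 342 control and 7 of 397 expanded cells, and 1 control cell held 70 of the 114 control UMIs. Without the control or without the expanded library of day 1, round 2, 0 of these genes passed, with adjusted p for Krt75 of 0.120 and 0.0618. Without the control library of day 1, round 1, 1 gene passed. Lcn2 had a smaller fold change in Krt79 positive than in basal cells, 1.01 against 2.07, a difference that did not pass (adjusted p = 0.147 by edgeR). Neither did those of Sdr16c6, a short-chain dehydrogenase (2.95), and Ovol1, a transcription factor of epidermal differentiation (0.71, both adjusted p = 0.296).

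**Figure D5:**
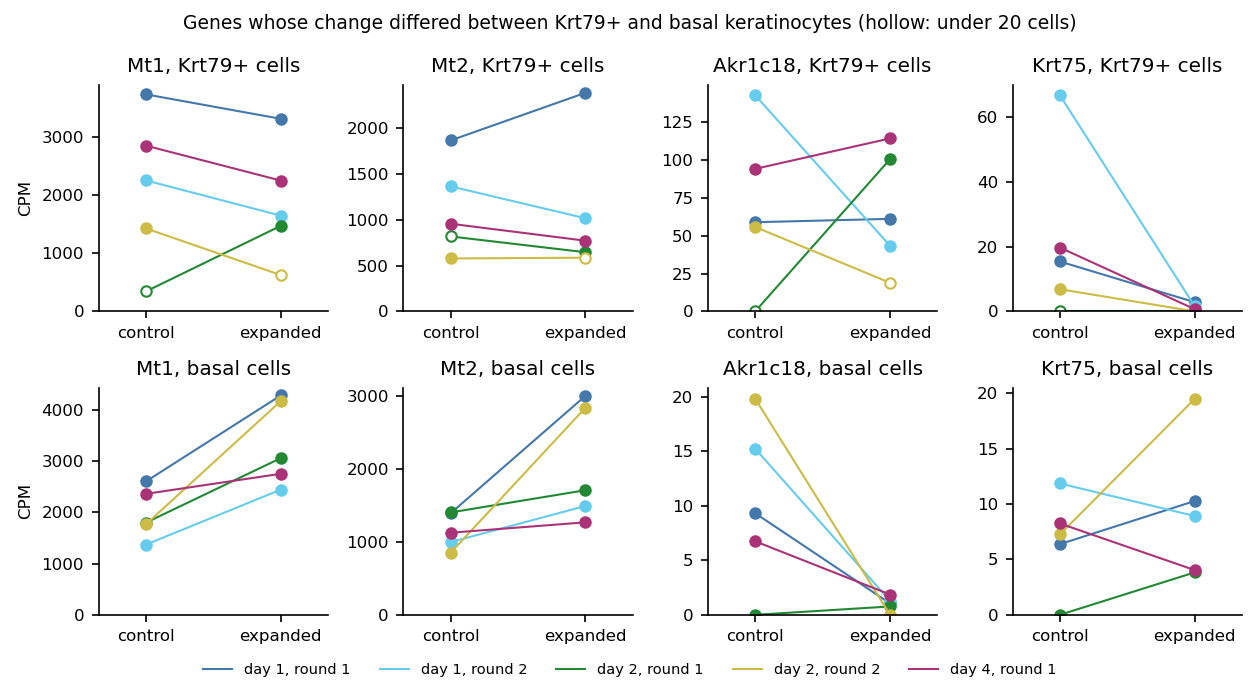
CPM of Mt1, Mt2, Akr1c18 and Krt75 in Krt79 positive cells (upper row) and basal keratinocytes (lower row), with a line for each day and round, hollow where under 20 cells. Mt1 and Mt2 were higher in all 5 expanded basal sums, and Akr1c18 was at most 1.86 CPM in expanded basal cells against 18.9 to 114 CPM in expanded Krt79 positive cells.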

How the data were processed

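The authors deposited raw UMI counts. The file headers name Cell Ranger 6.1.2 and the submitters' processing notes name mm10; the annotation was not given in the sources used here. Of 18 samples, the 10 mRNA libraries were analysed, and the 8 hashing samples gave only antibody names. A barcode was kept if it had 200 genes and 500 UMIs or more and no more than 10% of UMIs from mitochondrial genes. Scrublet (scanpy 1.11.5) marked from 0.0584% to 2.97% of a library's cells and so cannot be relied on in all of them; doublets were kept and left out in an alternative. Counts were summed per library and tested with edgeR 4.0.16 (filterByExpr, TMM, day as covariate) and, as an alternative, DESeq2 1.42.0. On simulated counts with 8521 genes, the 8-library test recovered 60.0% of genes changed by a log2 of 1 and 94.7% changed by 2. Each simulated gene had the spread fitted to genes of its level, with no day effect. The recovery of measured genes, which vary around that fit, may thus be lower. Of the measured genes 0 of 8521 passed, and these percentages hold for the simulated counts only.

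Control and expanded libraries of 1 day share a sequencing round per the labels, which is the pairing used for the replicate block; deviations of same-round libraries correlated at 0.0605 on day 1 and 0.0720 on day 2. Genes were named as those past the adjusted threshold at 32 CPM or more with 1 direction in all pairs (0 genes for expansion), up to 4 per list with the smallest p, the rule genes, and the 6 smallest p of each difference; Rbm3, Cirbp, Apoe, Rcan1, Chil1, Fst, Tm4sf1, Idi1, Fdps, Acat2, Thbs1 and Krt75 and the subcluster genes were added after their values were seen. Members and lists were chosen with earlier results of these data known. A comparison with spinous cells could not be fitted, because only the 2 libraries of day 1, round 2 had 20 such cells (69 and 31). Intervals of counts cover counting error only. A few genes of the lists are counted but not reported here by name.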

Additional observations from a re-analysis of the deposited data

Results flagged for a closer look

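In the 4 expanded libraries with at least 20 Krt79 positive cells, the day 4 library stood apart from the others, by the gap to its nearest neighbour over the range, in Lcn2 (800.1 CPM), S100a9 (299.7 CPM) and S100a8 (219.9 CPM). Krt10 stood apart in the expanded library of day 1, round 2 (621 CPM). Of 54 such checks about 1 in 20 is flagged by chance.

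The change with expansion differed between Krt79 positive and basal cells, on the log2 scale, by -4.19 for Krt75, -0.86 for Mt1, -0.76 for Mt2 and 2.74 for Akr1c18. The Krt75 value rests on 114 UMIs in control and 10 in expanded cells. The Akr1c18 difference did not pass after thinning (adjusted p = 0.333 by edgeR).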

How the results depend on the processing

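Gene calls with expansion were 0 with edgeR and 0 with DESeq2 size factors in edgeR, 71 with DESeq2, 496 with no filter on low counts, 22 after thinning, 17 with at least 5 Krt79 UMIs, 2 with a mitochondrial limit of 5% and 11 without Scrublet doublets. The replicate block gave 6 and, on all 10 libraries, 136, against 42 without it. Leaving out 1 library gave 0 to 46 calls. Calls between days were 0 in every setting run except 172 with no filter. Calls against basal cells were 4, and 162 with no filter, 12 after thinning, 2 with 10 libraries and 0 to 5 leaving out 1 library. The share difference of 0.986 points ran from 0.725 to 1.28 leaving out 1 library and was -4.27 against keratinocytes. The causes were not tested.

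Fold changes of these genes turned sign, in none of which a call was made. With the replicate block they were Postn 0.18, Tcf7l1 0.020, Ovol1 -0.25, Spink5 -0.38 and Lgals1 0.11. After thinning they were Postn 0.16, Dmkn -0.054, Jun 0.057 and Spink5 -0.20. Notch2 was 0.075 with 10 libraries and 0.14 with 10 and the block. Ovol1 was -0.051 with at least 5 Krt79 UMIs, -0.0824 with the mitochondrial limit of 5% and -0.00544 without doublets, and Mt2 was 0.024 with that limit. Leaving out 1 library gave Postn -0.80 to 0.29, Tcf7l1 -0.75 to 0.024, Sprr1b -0.42 to 1.44, S100a8 -0.019 to 4.46, Jun -0.15 to 0.0025, Notch2 -0.36 to 0.048, Bst2 -1.14 to 0.49, Akr1c18 -0.61 to 0.20, Mt2 -0.34 to 0.15, Ovol1 -0.21 to 0.32, Spink5 -0.37 to 0.80, Lgals1 -1.13 to 0.11 and BC004004 -0.096 to 0.68.

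The 2 libraries with 7 and 17 members limit day 2, since a share or level from them carries the counting error of few cells.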
